A study of Mus musculus with 13 samples.

Results

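Whole-hindbrain homogenate RNA from mice given DSP-4 was compared with the same material from mice given saline. These homogenates, called input, were taken before translating ribosome affinity purification (TRAP), which pulls down tagged ribosomes with the messenger RNA that they carry. The comparison holds 4 of the 13 libraries of the series, which are all those labelled as input. Replicates 2 and 7 are the DSP-4 input libraries, and replicates 5 and 12 those of saline. The other 9 libraries are TRAP libraries. All animals carried Slc6a2-eGFP/Rpl10a, a transgene that places an eGFP-tagged ribosomal protein under the regulatory region of the norepinephrine transporter gene, so the saline controls carried the tag too. Each library pooled 2 mice of one sex aged 6 to 8 months. DSP-4 at 50 mg/kg or saline was injected intraperitoneally on days 1 and 7, and tissue was taken on day 14. The tissue excluded the cerebellum, which was removed at dissection, and its front edge lay where the pons meets the hypothalamus.

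DSP-4 is a neurotoxin taken up through the norepinephrine transporter, and it damages the axons of locus coeruleus neurons more than those of other noradrenergic cells. The locus coeruleus is a small nucleus of the pons, so its transcripts are a minor share of hindbrain RNA. Most of that RNA comes from other neurons and from glia, and it also carries transcripts of whatever borders the cut, such as the choroid plexus of the fourth ventricle, the cerebellum and the meninges. In such bulk material fewer cells of a type and less RNA per cell cannot be told apart.

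No gene differed between DSP-4 and saline input at a false discovery rate (FDR) under 0.1 when edgeR was fitted to all 13 libraries, so 0% of the 12009 genes were called. At an unadjusted p under 0.05 there were 17 genes higher in DSP-4 input, 0.142% of all genes, and 289 lower, 2.41%. DESeq2, limma-trend and limma with a replicate block fitted to the 13 libraries also called 0 genes, with 329, 320 and 242 genes under the unadjusted threshold. When edgeR was fitted to the 4 input libraries alone, 4 genes passed, all higher in DSP-4 input (0.0333% of genes), and none was lower (0%). These were Pcp2, Car8, Fat2 and Ppp1r17, which are genes of cerebellar Purkinje and granule cells. Of that fit, 558 genes higher and 797 lower had an unadjusted p under 0.05. Both DSP-4 libraries lay above both saline libraries for 18.2% of all genes and below both for 26.3%. An exact permutation test of 2 against 2 libraries cannot give a two-sided p under 0.333.

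The 4 libraries held between 21697383 and 28208463 counts, and mitochondrially encoded genes took between 4.66% and 6.77% of them. The standard deviation of the log2 difference over genes was 0.33 between the DSP-4 libraries and 0.41 between the saline libraries. Across treatments it was 0.33 for DSP-4 input 2 against saline input 12 and 0.46 for DSP-4 input 2 against saline input 5. Saline input 5 therefore stood apart from the other libraries more than the treatments stood apart from each other. On the first principal component, which held 51.0% of the variance, saline input 5 was at 31.9 and the other 3 libraries lay between -15.6 and -4.53.

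**Figure D1:**
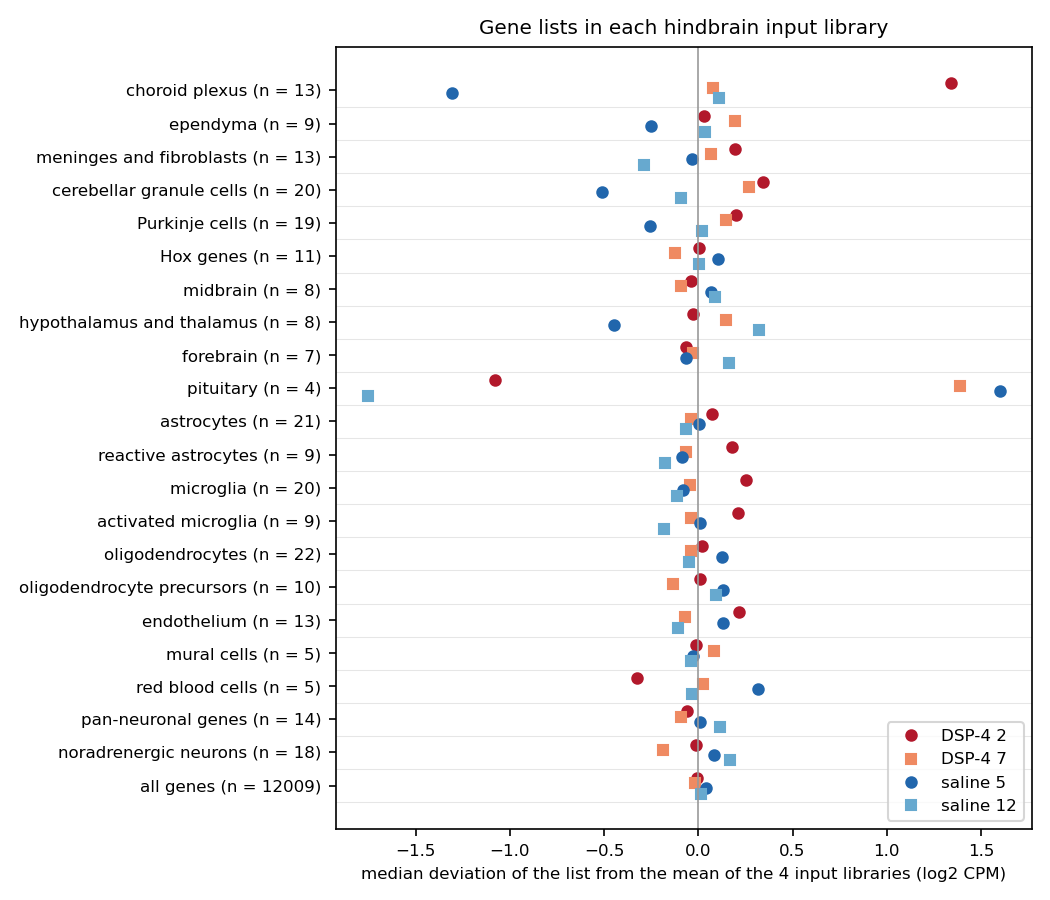
Median deviation of each gene list from the mean of the 4 input libraries, on the log2 CPM scale (x axis), with 1 point per library and the number of measured genes in brackets. Choroid plexus spans 1.34 in DSP-4 input 2 to -1.31 in saline input 5, pituitary genes separate the libraries within each treatment, and most glial lists lie close to 0.

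The largest spread over libraries among the lists of the brain and its coverings was that of the choroid plexus, the epithelium that secretes cerebrospinal fluid. Counts are given below as counts per 1000000 (CPM) scaled by the trimmed mean of M values (TMM), with DSP-4 input 2 and 7 in that order and then saline input 5 and 12. Ttr, the thyroid hormone carrier that is the hallmark transcript of this epithelium, was at 3502 and 1209 CPM in DSP-4 input, against 74.5 and 1028 CPM in saline input. Saline input 5 alone was low and DSP-4 input 2 alone was high, while DSP-4 input 7 and saline input 12 were close to each other. The log2 fold change (logFC) of Ttr was 2.10 (SE 1.23, FDR = 1 with edgeR over 13 libraries).

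Kl and Clic6 were likewise highest in DSP-4 input 2 and lowest in saline input 5, whereas Enpp2 was not low in saline input 5. Kl, which encodes the hormone co-receptor klotho, was at 40.5 and 15.8 CPM in DSP-4 input, against 4.19 and 16.2 CPM in saline input. Clic6, an intracellular chloride channel, was at 40.5 and 18 CPM in DSP-4 input, against 4.19 and 21.1 CPM in saline input. For both genes the groups overlapped through DSP-4 input 7 and saline input 12. Enpp2, which encodes autotaxin and is made by oligodendrocytes as well, was at 501 and 242 CPM in DSP-4 input, against 255 and 257 CPM in saline input. Otx2, a homeobox transcription factor, varied least of the most abundant members, at 23 and 18.4 CPM in DSP-4 input and 14.8 and 21.1 CPM in saline input.

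Of 25 choroid plexus genes listed, 13 were measured and all 13 had a positive logFC, with a median of 1.22 beside -0.03 over all genes. In 4 of them (30.8%, beside 18.2% of all genes) both DSP-4 libraries lay above both saline libraries, none lay below, and none had an unadjusted p under 0.05. The median logFC was 0.53 without saline input 5, 2.22 without saline input 12 and 0.51 without DSP-4 input 2. The sum over the list was 4233 and 1558 CPM in DSP-4 input, against 375 and 1399 CPM in saline input.

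**Figure D2:**
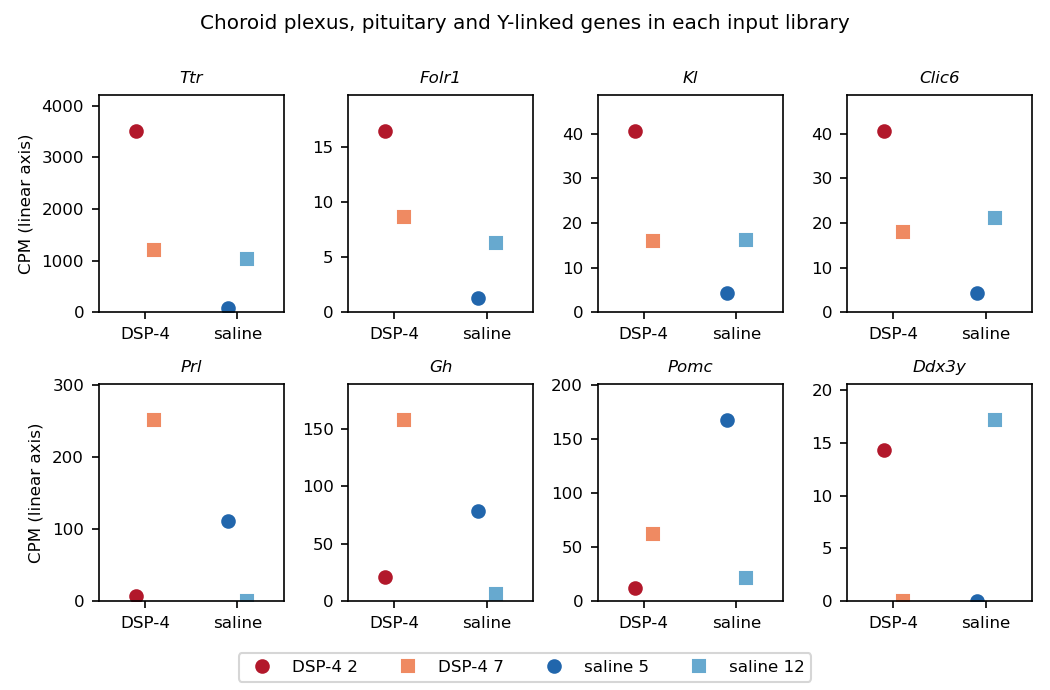
CPM (linear y axes from 0) of 4 choroid plexus genes, 3 pituitary hormone genes and the Y-linked Ddx3y in the 2 DSP-4 and 2 saline input libraries, 1 point per library. For Ttr, Kl and Clic6 the points of DSP-4 7 and saline 12 lie close together, and Ddx3y is at 0 in 1 library of each treatment.

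Ependymal and meningeal transcripts varied much less. Ependyma, the ciliated lining of the ventricles, had 9 of 26 listed genes measured, with a median logFC of 0.28. Both DSP-4 libraries lay above both saline libraries for 4 of them (44.4%, beside 18.2% of all genes) and below for 1 (11.1%, beside 26.3%). The median was 0.16 without saline input 5, 0.16 without DSP-4 input 7 and 0.51 without saline input 12. Foxj1, the master regulator of motile cilia, was at 18.1 and 11.3 CPM in DSP-4 input, against 6.59 and 13.2 CPM in saline input. Meningeal and fibroblast genes had a median logFC of 0.27, and 7 of 13 measured genes (53.8%, beside 18.2% of all genes) lay above both saline libraries and none below. The median was 0.13 without saline input 12. Ptgds, which encodes prostaglandin D2 synthase, was at 2666 and 2474 CPM in DSP-4 input, against 2178 and 2079.6 CPM in saline input. Igf2, a growth factor that the adult brain expresses mainly in meninges and choroid plexus, was at 196 and 173 CPM in DSP-4 input, against 117 and 120 CPM in saline input. For Ptgds and Igf2 the libraries of the treatments did not overlap, with logFC of 0.27 (SE 0.29) and 0.63 (SE 0.33) and an FDR of 1 for both.

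The cerebellum gave the clearest separation of single genes. Purkinje cells are the output neurons of its cortex, and granule cells are excitatory neurons of that cortex. Pcp2, a regulator of G protein signalling found in Purkinje cells, was at 29.6 and 30.4 CPM in DSP-4 input, against 6.48 and 3.87 CPM in saline input. Both DSP-4 libraries were higher than either saline library, and the saline libraries averaged 5.18 ± 1.84 CPM (SD, n = 2). The logFC of Pcp2 was 2.53 in the fit to 13 libraries (SE 1.33, FDR = 1) and 2.54 in the edgeR fit to the 4 input libraries (SE 0.24, FDR = 0.00172). Pcp2 lies at chr8:3623371-3625545 on the minus strand (GRCm38), and 51.5% of its exonic bases are shared with Pet100. As the strand setting of the counting is not given in the sources used here, its count may hold reads of that neighbour.

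Car8, a carbonic anhydrase-related protein that binds the inositol trisphosphate receptor in Purkinje cells, lies at chr4:8143362-8239041 and shares no exonic base with another gene. Car8 was at 67 and 57.7 CPM in DSP-4 input, against 28.7 and 27.9 CPM in saline input, which gave a logFC of 1.16 in the 4 input libraries with edgeR (SE 0.16, FDR = 0.0583). Ppp1r17, a phosphatase inhibitor of Purkinje cells, was at 15.5 and 12.5 CPM in DSP-4 input, against 5.03 and 4.68 CPM in saline input (logFC 1.54, SE 0.24, FDR = 0.0952 with edgeR). Fat2, an atypical cadherin of granule cells, was at 12.5 and 8.93 CPM in DSP-4 input, against 2.97 and 2.36 CPM in saline input (logFC 2.01, SE 0.29, FDR = 0.0586 with edgeR). All 3 genes separated the treatments without overlap.

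Some granule cell genes outside the called set, such as Cbln3 and Gabra6, followed the same order. Cbln3, a cerebellin that granule cells release with Cbln1, was at 25.9 and 11.3 CPM in DSP-4 input, against 3.92 and 5.43 CPM in saline input. Gabra6, the GABA-A receptor subunit most typical of granule cells, was at 10.4 and 7.71 CPM in DSP-4 input, against 3.09 and 2.27 CPM in saline input. With edgeR in the 4 input libraries both missed the threshold at an FDR of 0.143 for Cbln3 and 0.143 for Gabra6, while DESeq2 called both. Gdf10, a growth factor expressed by Bergmann glia, was at 7.16 and 6.67 CPM in DSP-4 input, against 2.25 and 2.88 CPM in saline input, with a logFC of 1.45 (SE 0.30, FDR = 0.424 with edgeR). Gdf10 was in no list and was chosen after its value was seen.

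**Figure D3:**
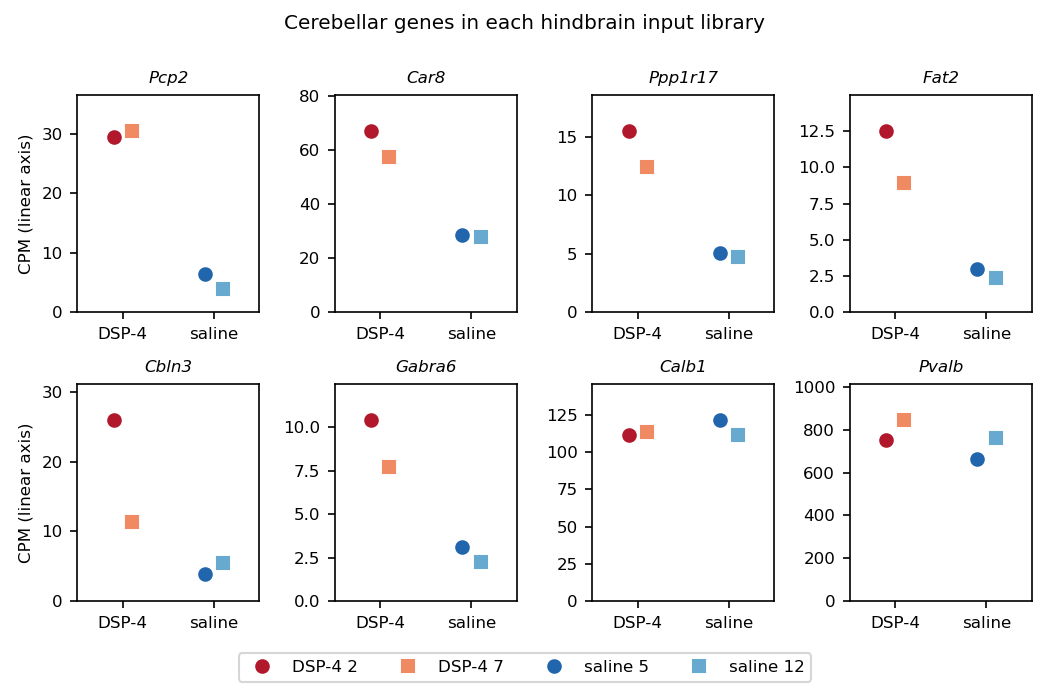
CPM (linear y axes from 0) of 8 genes of Purkinje and granule cells in the 2 DSP-4 and 2 saline input libraries, 1 point per library. Pcp2, Car8, Ppp1r17, Fat2, Cbln3 and Gabra6 are higher in both DSP-4 libraries than in either saline library, whereas Calb1 and Pvalb overlap.

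Of the list members with the highest level, some overlapped between the treatments and others did not. Calb2, which encodes calretinin and is also expressed by many brainstem neurons, was at 375 and 437 CPM in DSP-4 input, against 372 and 405 CPM in saline input. Pvalb, which encodes parvalbumin, was at 752 and 844 CPM in DSP-4 input, against 663 and 763 CPM in saline input. Pcp4 and Calb1, calcium-signalling genes that are likewise expressed outside the cerebellum, had logFC of 0.02 and -0.05. Gng13, a G protein gamma subunit, was at 81.7 and 140 CPM in DSP-4 input, against 57.1 and 89.2 CPM in saline input, and 51.6% of its exonic bases overlap another gene. Cbln1 was at 118 and 114 CPM in DSP-4 input, against 67.3 and 83.7 CPM in saline input, whereas Etv1, an ETS transcription factor, was lower in both DSP-4 libraries, at 87.0 and 85.8 CPM against 108 and 108 CPM in saline input. Slc17a7, a vesicular glutamate transporter, was at 93.9 and 78.7 CPM in DSP-4 input and 39.1 and 87.6 CPM in saline input, so that saline input 5 alone was low.

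Over the granule cell list 12 of 20 measured genes (60.0%, beside 18.2% of all genes) lay above both saline libraries. For 1 gene (5%, beside 26.3%) both DSP-4 libraries lay below, and the median logFC of the list was 0.53. The median was 0.80 without saline input 12 and 0.36 without saline input 5. Of 19 measured Purkinje cell genes, 6 lay above (31.6%, beside 18.2% of all genes) and 1 below (5.26%, beside 26.3%). Their median logFC was 0.38, which was 0.14 without saline input 5. In the edgeR fit to the input libraries, 1 granule cell gene and 3 Purkinje cell genes were called. Leaving out 1 input library changed which were called. Pcp2 stayed under an FDR of 0.1 in all 4 such fits, with logFC between 2.24 and 2.98, whereas Car8 and Ppp1r17 did not pass without DSP-4 input 2 or without DSP-4 input 7, and Fat2 did not pass without DSP-4 input 2.

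The same transcripts were measured in TRAP libraries, where their level varied within each treatment. Pcp2 was between 2.67 and 24.7 CPM in the 6 DSP-4 TRAP libraries and between 0.0674 and 24.7 CPM in the 3 saline TRAP libraries, and its TRAP logFC was -0.04 (SE 0.96). Car8 was between 28.3 and 185 CPM in DSP-4 TRAP and between 21.7 and 216 CPM in saline TRAP. The higher level in DSP-4 input was therefore not seen as a shift of the TRAP groups. 3 of the homogenates had a TRAP library too, and there Pcp2 was at 4.35 and 8.98 CPM in DSP-4 TRAP 2 and 7, against 0.0674 CPM in saline TRAP 12. The spread over TRAP libraries entered the fit to 13 libraries, which is where the SE of Pcp2 was 1.33 and not 0.24.

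Other regional markers were also measured. Of 23 Hox genes, which pattern the hindbrain and spinal cord, 11 were measured, with a median logFC of -0.13. In both DSP-4 libraries 1 gene lay above (9.09%, beside 18.2% of all genes) and 2 below (18.2%, beside 26.3%). The median was -0.05 without saline input 5 and -0.08 without DSP-4 input 7. Hoxb5 was at 65 and 66.7 CPM in DSP-4 input, against 60.5 and 64.1 CPM in saline input, and Hoxa5 at 30.7 and 29.8 CPM in DSP-4 input, against 42.2 and 38.5 CPM in saline input. Of 19 forebrain genes 7 were measured. Of 8 measured midbrain genes, 1 lay above (12.5%, beside 18.2% of all genes) and 3 below (37.5%, beside 26.3%) in both DSP-4 libraries. Their median logFC was -0.16, which was -0.11 without saline input 5. Slc6a3, the dopamine transporter, was at 28.5 and 24.6 CPM in DSP-4 input, against 30.8 and 28.3 CPM in saline input. The gene above was En2, which patterns the midbrain and cerebellum and was at 18 and 16.2 CPM in DSP-4 input, against 10.2 and 10.3 CPM in saline input, without overlap (logFC 0.74, SE 0.36). Of 8 measured genes of hypothalamus and thalamus, 2 lay above (25%, beside 18.2% of all genes) and none below (0%, beside 26.3%). The median deviation of this list was -0.45 in saline input 5 and 0.32 in saline input 12. Its median logFC of 0.20 was 0.31 without DSP-4 input 2, -0.08 without DSP-4 input 7, -0.12 without saline input 5 and 0.63 without saline input 12. Prkcd and Tcf7l2, which are abundant in the thalamus, were lowest in saline input 5. Prkcd was at 59.0 and 83.6 CPM in DSP-4 input, against 37.2 and 92.1 CPM in saline input.

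Pituitary hormones separated the libraries within each treatment. Prl, which encodes prolactin, was at 6.35 and 251 CPM in DSP-4 input, against 111 and 0.425 CPM in saline input. Gh, the growth hormone gene, was at 20.8 and 158 CPM in DSP-4 input, against 78.8 and 5.72 CPM in saline input. Pomc, the precursor of corticotropin and melanocortins, was at 12.4 and 62.0 CPM in DSP-4 input, against 167 and 21.7 CPM in saline input. DSP-4 input 7 and saline input 5 were the high libraries for all 3 genes. The same 2 libraries held 0 counts of the Y-linked Ddx3y, which allows up to 0.141 and 0.114 CPM by counting error alone, whereas Ddx3y was at 14.3 CPM in DSP-4 input 2 and 17.2 CPM in saline input 12. Each treatment thus had 1 library with and 1 without Y-linked counts, and Eif2s3y, Kdm5d and Uty split the libraries in the same way.

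Glial lists had median logFC between -0.09 for oligodendrocyte precursors and 0.21 for activated microglia. Astrocytes, which clear glutamate and buffer potassium, had all 21 listed genes measured, with a median logFC of 0.04. Both DSP-4 libraries lay above both saline libraries for 5 of them (23.8%, beside 18.2% of all genes) and below for 2 (9.52%, beside 26.3%). The median was 0.13 without saline input 5 and -0.01 without saline input 12. Aldoc, a glycolytic enzyme of astrocytes, was at 1925 and 1927 CPM in DSP-4 input, against 2081 and 2092 CPM in saline input, a logFC of -0.12 (SE 0.20). Glul, which makes glutamine from glutamate, was at 1613 and 1434 CPM in DSP-4 input, against 1563 and 1766 CPM in saline input. S100b and Clu had logFC of 0.06 and 0.03. Gfap, the intermediate filament that rises in reactive astrocytes, was at 350 and 363 CPM in DSP-4 input, against 327 and 367 CPM in saline input, and its logFC of 0.04 had an SE of 0.19. Of 20 reactive astrocyte genes 9 were measured, with a median logFC of 0.01. That median was not stable, at -0.14 without DSP-4 input 2 and 0.19 without DSP-4 input 7. It was 0.17 without saline input 5 and 0.18 without saline input 12. For 3 of the 9 (33.3%, beside 18.2% of all genes) both DSP-4 libraries lay above both saline libraries, and for none below.

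Microglia, the resident macrophages of the brain, had 20 of 22 listed genes measured, and 17 had a positive logFC with a median of 0.17. In 7 of them (35.0%, beside 18.2% of all genes) both DSP-4 libraries lay above both saline libraries and in none below. Ctss, a lysosomal protease, was at 76.9 and 56.5 CPM in DSP-4 input, against 63.2 and 53.9 CPM in saline input. The complement genes C1qb and C1qa were at 66.0 and 61.7 CPM and at 71.5 and 46.8 CPM in DSP-4 input, against 46.7 and 56.9 CPM and 47.2 and 60.7 CPM in saline input. The excess lay in DSP-4 input 2, where the median deviation of the list was 0.25, while DSP-4 input 7 was at -0.05, against -0.08 and -0.11 in saline input 5 and 12. The median logFC was 0.02 without DSP-4 input 2 and 0.37 without DSP-4 input 7. Of 15 genes of activated microglia 9 were measured, with a median logFC of 0.21. This median was 0.04 without DSP-4 input 2 and 0.33 without saline input 5. Of these genes 3 lay above (33.3%, beside 18.2% of all genes) and 1 below (11.1%, beside 26.3%).

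Oligodendrocytes, which form myelin, had all 22 listed genes measured, with a median logFC of 0.00. Both DSP-4 libraries lay above for 4 of them (18.2%) and below for 6 (27.3%), which is close to the 18.2% and 26.3% of all genes. Mbp, the myelin basic protein gene, was at 4311 and 3792.5 CPM in DSP-4 input, against 3741 and 3645 CPM in saline input, with a logFC of 0.13 (SE 0.21). Trf, the iron carrier transferrin, had a logFC of 0.05, and Qdpr, a pteridine reductase, had a logFC of -0.13. Of oligodendrocyte precursor genes, 10 of 12 were measured, with a median logFC of -0.09.

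Endothelial genes had a median logFC of 0.06 over 13 measured genes. Haemoglobin and other red cell genes had a median logFC of -0.29 over 5 genes, which was -0.11 without saline input 5 and -0.11 without DSP-4 input 2. Hba-a2 was at 412 and 525 CPM in DSP-4 input, against 641 and 508 CPM in saline input, with DSP-4 input 2 lowest and saline input 5 highest. Of 14 pan-neuronal genes, 2 lay above (14.3%, beside 18.2% of all genes) and 8 below (57.1%, beside 26.3%) in both DSP-4 libraries. Their median logFC was -0.11, which was -0.06 without saline input 12. Snap25, a SNARE protein of synaptic vesicle release, was at 2745 and 2638 CPM in DSP-4 input, against 4016 and 3447 CPM in saline input, a logFC of -0.47 (SE 0.19, FDR = 1 with edgeR). Uchl1, a neuronal deubiquitinase, and Stmn2, a microtubule regulator, had logFC of -0.07 and -0.11, and Nefl, the light neurofilament subunit, had -0.26. Heat shock genes lay below both saline libraries in 7 of 13 cases (53.8%, beside 26.3% of all genes) and above in none, with a median logFC of -0.43. The median was -0.16 without saline input 12 and -0.28 without DSP-4 input 2. Hspa8, a constitutive chaperone, was at 1417 and 1562 CPM in DSP-4 input, against 1941 and 1927 CPM in saline input. Hsp90ab1, Hsp90aa1 and Hsph1, which encode large chaperones, had logFC of -0.16, -0.54 and -0.55.

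A trend with base composition ran through the whole comparison. Over 11832 genes with an annotated transcript, the logFC of DSP-4 against saline input had a Spearman correlation of 0.65 with the content of guanine and cytosine (GC) of the transcript, as a description across genes that are not independent replicates. In 5 equal classes of genes from the lowest to the highest GC, the median logFC was -0.30, -0.14, -0.01, 0.10 and 0.17. In the lowest class (up to 43.9% GC), 1.52% of genes lay above both saline libraries and 59.2% below. In the highest class (from 55.6% GC), 36.4% lay above and 4.40% below. The shares of all genes given beside those of the lists were not matched for GC. In the fourth class (51.6% to 55.6% GC), 30.3% lay above and 8.78% below. The median GC of the astrocyte, granule cell and meningeal lists, for example, lay in that class (51.9%, 52.2% and 53.5%).

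Each library took part in the trend to a different degree. Against the mean of the 4 libraries, the correlation with GC was 0.38 and 0.54 in DSP-4 input 2 and 7, against -0.64 and -0.07 in saline input 5 and 12. All 4 pairs of a DSP-4 and a saline library gave a positive correlation, from 0.30 for DSP-4 input 2 against saline input 12 to 0.65 for DSP-4 input 7 against saline input 5. Within a treatment, saline input 5 against saline input 12 gave -0.45 and DSP-4 input 2 against DSP-4 input 7 gave -0.12. Without saline input 5 the correlation of the logFC with GC was 0.40. Transcript length had a correlation of -0.04 with the logFC, and in the TRAP libraries GC had a correlation of -0.05 with the logFC of DSP-4 against saline. With 2 libraries a side, DSP-4 and differences between single libraries cannot be told apart as sources of the trend.

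**Figure D4:**
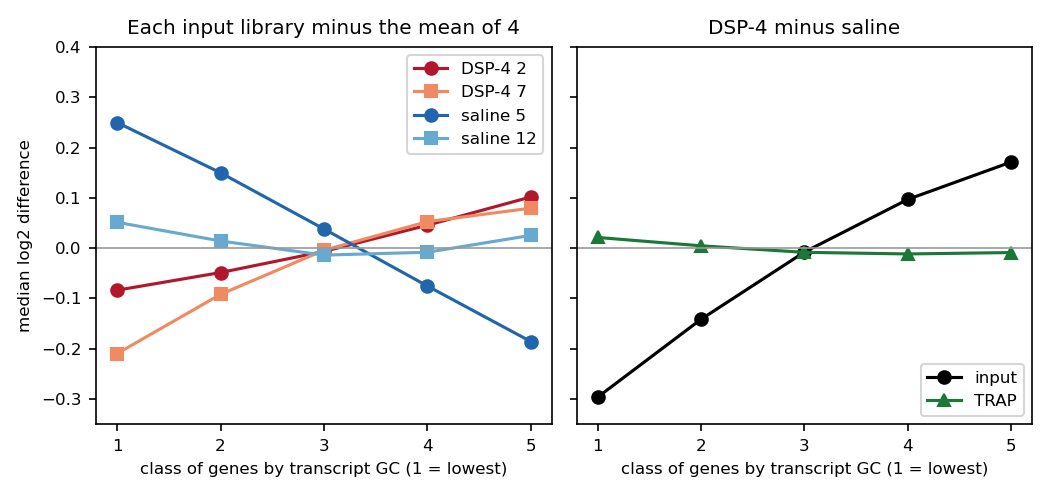
Median log2 difference (y axis) in 5 equal classes of genes by transcript GC (x axis, lowest to highest), for each input library minus the mean of the 4 (left) and for DSP-4 minus saline in input and TRAP (right). Saline 5 falls with GC, both DSP-4 libraries rise, saline 12 is nearly flat, and the TRAP line stays near 0.

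The genes with the smallest p in each direction, none of which passed the FDR threshold, followed the trend. The 15 with the smallest p among higher genes had a median transcript GC of 55.9% (48.2% to 62.4%). Ace, angiotensin converting enzyme, led them, at 30.8 and 20.3 CPM in DSP-4 input, against 9.45 and 13.4 CPM in saline input (logFC 1.17, SE 0.33). The others were Trp53i11, Bri3bp, the kinesin Kif1c, the postsynaptic scaffold Shank3, the glutamine transporter Slc38a3, the lipoprotein receptor Lrp1, the hedgehog co-receptor Boc, the kinase Cdc42bpb, the acyltransferase Agpat3, the MHC class I gene H2-T23, Shisa7, Mxra8, the sodium-calcium exchanger Slc8a3 and Gdpd5. Their logFC ran from 0.44 to 1.17.

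The 15 with the smallest p among lower genes had a median transcript GC of 40.2% (37.0% to 46.4%, 14 with a value). Gpbp1, a transcription factor, led them, at 37.7 and 37.0 CPM in DSP-4 input, against 57.5 and 64.1 CPM in saline input (logFC -0.70, SE 0.17). Elavl2, a neuronal RNA-binding protein, was at 62.2 and 59.3 CPM in DSP-4 input, against 96.1 and 104 CPM in saline input. Ermn, a cytoskeletal protein of oligodendrocytes, was at 105 and 95.8 CPM in DSP-4 input, against 171 and 146 CPM in saline input. The others were the peptidyl-prolyl isomerase Ppid, Fam126b, Zc3h15, BC003331, the COP9 signalosome subunit Cops2, Dcun1d1, the phospholipase Plcb1, Wdr43, Htatsf1, the translation initiation gene Eif3j2, the neuronal RNA-binding gene Elavl4 and Zfp322a. Their logFC ran from -0.97 to -0.63.

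The middle 90 bases of the coding sequence are given for the first 3 genes of each direction. They are examples of base composition, while the trend was measured on the whole transcript. They come from GENCODE M21 transcripts (GRCm38), and capitals mark G and C. The higher genes Ace (chr11:105967945-105989964), Trp53i11 (chr2:93187548-93201759) and Bri3bp (chr5:125441568-125460370) hold 48, 52 and 56 of 90 bases as G or C. The lower genes Gpbp1 (chr13:111425680-111490111), Elavl2 (chr4:91250763-91400785) and Ermn (chr2:58045113-58052864) hold 36, 41 and 46.
Ace: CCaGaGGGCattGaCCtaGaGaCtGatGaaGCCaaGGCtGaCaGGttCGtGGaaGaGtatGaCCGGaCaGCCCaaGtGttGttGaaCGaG
Trp53i11: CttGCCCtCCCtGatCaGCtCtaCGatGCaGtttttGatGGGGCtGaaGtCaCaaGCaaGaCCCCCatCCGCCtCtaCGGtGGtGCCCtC
Bri3bp: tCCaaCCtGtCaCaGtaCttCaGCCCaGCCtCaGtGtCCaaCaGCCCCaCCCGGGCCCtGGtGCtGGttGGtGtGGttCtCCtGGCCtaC
Gpbp1: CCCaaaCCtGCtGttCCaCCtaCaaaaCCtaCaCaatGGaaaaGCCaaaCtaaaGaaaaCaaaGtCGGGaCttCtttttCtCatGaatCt
Elavl2: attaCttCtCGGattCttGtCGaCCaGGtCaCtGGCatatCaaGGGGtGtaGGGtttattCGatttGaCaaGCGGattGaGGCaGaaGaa
Ermn: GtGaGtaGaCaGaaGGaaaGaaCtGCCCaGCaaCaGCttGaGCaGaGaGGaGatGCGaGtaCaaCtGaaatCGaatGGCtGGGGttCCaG
Ermn and Bri3bp show that a stretch need not follow its transcript. The window of Ermn has 51.1% GC and its transcript 38.0%. The window of Bri3bp has 62.2% GC, but its transcript has 48.2%, below the median of 49.7% over all genes. Bri3bp was therefore higher in DSP-4 input without a GC-rich transcript.

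A per-library offset that follows GC took the correlation of the logFC with GC to -0.01, and 50 genes then had an unadjusted p under 0.05, against 306 without the offset. Gpbp1, Elavl2 and Ermn had logFC of -0.42, -0.36 and -0.28 with it. The median logFC with the offset was 1.15 for choroid plexus, 0.41 for granule cells, 0.36 for Purkinje cells, 0.15 for microglia, -0.02 for astrocytes and -0.07 for oligodendrocytes. It was -0.26 for Hox genes, against -0.13 without the offset, -0.16 for pan-neuronal genes, against -0.11, and -0.01 for oligodendrocyte precursors, against -0.09. With the offset in the 4 input libraries alone, edgeR called Pcp2, Car8, Ppp1r17 and Gabra6.

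None of the noradrenergic genes passed the FDR threshold in input, and 1 had an unadjusted p under 0.05. Slc6a2, the norepinephrine transporter, was at 4.52 and 1.83 CPM in DSP-4 input, against 4.19 and 5.06 CPM in saline input, which rests on 106 and 39 counts in DSP-4 input and 110 and 107 in saline input. DSP-4 input 7 alone was low, and the logFC was -0.53 (SE 0.43, FDR = 1 with edgeR), which was -0.03 without DSP-4 input 7 and -1.32 without DSP-4 input 2. Dbh, which converts dopamine to norepinephrine, was at 10.6 and 8.22 CPM in DSP-4 input, against 9.98 and 10.7 CPM in saline input (logFC -0.13, SE 0.28). Th, the rate-limiting enzyme of catecholamine synthesis, was at 44.3 and 39.3 CPM in DSP-4 input, against 51.6 and 48.5 CPM in saline input, without overlap (logFC -0.26, SE 0.23). Gal, the neuropeptide galanin, was at 8.94 and 14.1 CPM in DSP-4 input, against 12.4 and 15.6 CPM in saline input (logFC -0.28, SE 0.25).

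Among the transport and enzyme genes, Slc18a2, the vesicular monoamine transporter, was at 25.5 and 19.3 CPM in DSP-4 input, against 36.6 and 34.2 CPM in saline input. It had the smallest p of the list (logFC -0.66, SE 0.27, FDR = 1 with edgeR) and is shared with serotonergic and dopaminergic neurons. Slc10a4, a vesicular protein of monoaminergic and cholinergic neurons, was at 21.3 and 19.0 CPM in DSP-4 input, against 27.5 and 22.8 CPM in saline input. Ddc, Maoa and Gch1, which act in monoamine synthesis, breakdown and cofactor supply, had logFC of -0.19, -0.20 and -0.08.

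The transcription factor Phox2a, which specifies noradrenergic neurons, was at 1.58 and 0.423 CPM in DSP-4 input, against 1.37 and 2.08 CPM in saline input. Its logFC of -0.77 (SE 0.62) was -2.00 without DSP-4 input 2 and -0.13 without DSP-4 input 7. Tfap2b and Gata3 had -0.05 and -0.15. Of the receptors, Calcr, the calcitonin receptor, was at 1.66 and 0.282 CPM in DSP-4 input, against 2.21 and 2.83 CPM in saline input (logFC -1.35, SE 0.66), whereas Adra2a, Hcrtr1 and Gabrq had logFC of 0.08, -0.01 and -0.22. Peg10 had a logFC of -0.04. Of the 18 listed genes, all measured, 5 lay below both saline libraries (Th, Slc18a2, Slc10a4, Calcr and Gabrq) and none above, a share of 27.8% beside 26.3% of all genes. A negative logFC was found for 17 of the 18, against 6502 of all 12009 genes. The median logFC was -0.20, between -0.26 and -0.15 with 1 input library left out. The exact two-sided permutation p-values of the 18 genes were 0.333 or more, the smallest that 2 against 2 libraries can give.

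**Figure D5:**
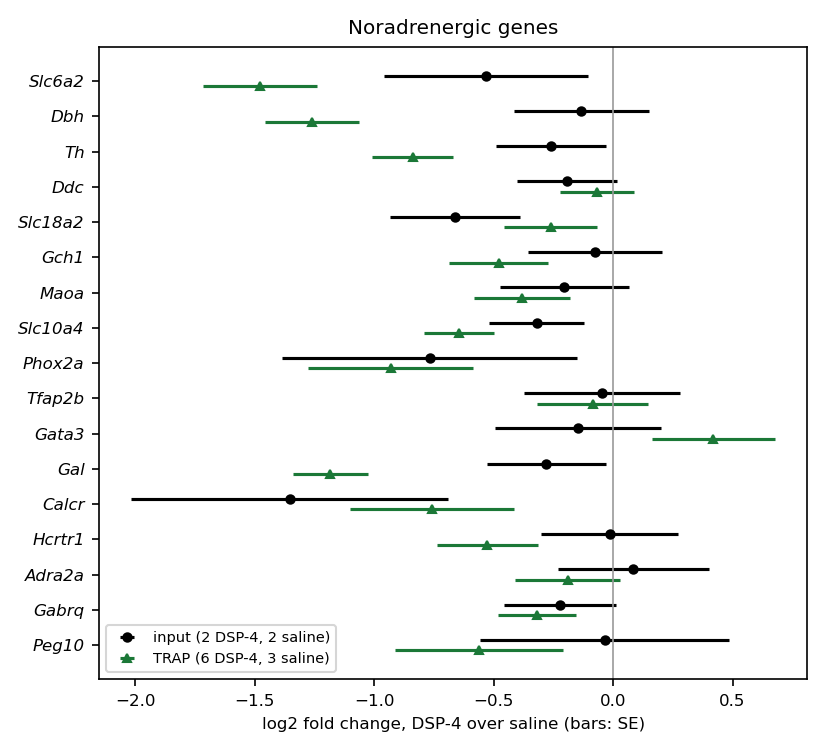
log2 fold change of DSP-4 over saline (x axis, bars are the SE) for the named noradrenergic genes in input (2 DSP-4 and 2 saline libraries) and TRAP (6 DSP-4 and 3 saline libraries). Input values come from the edgeR fit to 13 libraries and TRAP values from an edgeR fit to the TRAP libraries alone. Slc6a2, Dbh, Th and Gal lie between -1.48 and -0.84 in TRAP and between -0.53 and -0.13 in input.

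In TRAP the logFC of the same genes was -1.48 for Slc6a2, -1.26 for Dbh, -0.84 for Th and -1.18 for Gal. These values came from an edgeR fit to the 9 TRAP libraries alone, with SE between 0.16 and 0.24. The difference of the DSP-4 effect, TRAP minus input, was taken from the interaction term of the edgeR fit to 13 libraries. It was -0.93 for Slc6a2, -1.12 for Dbh, -0.57 for Th and -0.90 for Gal. None passed, and over all genes 0 passed an FDR of 0.1 for this term with edgeR (321 at an unadjusted p under 0.05) and 0 with limma and a replicate block (304). The effects in TRAP and in input were thus not shown to differ for any gene.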

How the data were processed

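The authors mapped read pairs to the mouse genome mm10 (STAR), and featureCounts gave the deposited counts of 12009 genes in 13 libraries. For both tools the version, and for the counting also the annotation and strand setting, nothing is stated. The deposit labels the counts as filtered and normalized, and they were used here as raw counts. No low gene remained to be removed, as the lowest mean was 78.4 counts. TMM scaling and the quasi-likelihood test of edgeR 4.0.16 (R 4.3.3) were applied to all 13 libraries and p-values were adjusted by the Benjamini-Hochberg method, with genes under an FDR of 0.1 called. The log2 CPM used a prior count of 1. DESeq2 1.42.0 and limma 3.58.1 were alternatives. GC content was that of the longest transcript of each gene in GENCODE M21, matched by symbol or synonym for 11836 genes. The steps were tested on simulated data. Nothing says that replicates came from separate experiments beyond their separate pools, so p-values measure the spread between pools. In the fit to 13 libraries this spread is that of TRAP and input libraries together, and not of the homogenates alone. The biological coefficient of variation was 0.25 in that fit and 0.155 in the fit to the 4 input libraries. Named genes were, for each direction, the 15 of smallest p, together with up to 4 members of each list with the highest mean CPM, and the noradrenergic list. Some genes that the rule names are not reported here. Others were chosen after their values were seen, such as Car8, Ppp1r17, Fat2, Cbln3, Gabra6, Kl and En2. The libraries, the lists and the genes were chosen with earlier results of these data known. Intervals and limits for counts of 0 cover counting error only.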

Additional observations from a re-analysis of the deposited data

How the results depend on the processing

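The comparison called 0 genes in every fit to the 13 libraries and at an FDR under 0.05, and also in each fit that left out 1 input library, both DSP-4 TRAP libraries 2 and 3, or the mitochondrially encoded genes. The 4 input libraries alone gave 4 calls. Chosen after seeing the data, DESeq2 on these 4 libraries gave 13, a GC offset 4, and leaving out 1 input library between 3 and 1971 (4 without DSP-4 2, 3 without DSP-4 7, 51 without saline 5, 1971 without saline 12). The cause was not tested. Of the 13 calls of DESeq2, 10 were higher in DSP-4 input and 3 lower. The lower genes were Ppid, Ik and Elavl2, and the higher ones included Ace and Igf2 beside cerebellar genes. The count at an unadjusted p under 0.05 was 306, against 50 with the GC offset, 720 without DSP-4 TRAP 2 and 3, and between 69 and 484 with 1 input library left out.

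Leaving out 1 input library moved the median logFC of choroid plexus between 0.51 and 2.22, of granule cells between 0.36 and 0.80, of Purkinje cells between 0.14 and 0.47, of microglia between 0.025 and 0.37, and of astrocytes between -0.013 and 0.13. Dbh lay between -0.31 and 0.038 and Gal between -0.64 and 0.027, which reversed their direction without DSP-4 input 7 and without DSP-4 input 2. The GC correlation lay between 0.40 without saline input 5 and 0.67 without saline input 12. These moves were smaller than the spread between libraries (0.29). As that spread holds the distance of saline input 5 from saline input 12, it is a wide limit, and no conclusion is drawn from it. The 30 genes with the smallest p kept their sign in all 385 alternative values. They were chosen by p in these same libraries, and none overlapped between the treatments. Their selection thus made a change of sign unlikely, and no conclusion is drawn from it. The compared groups share no replicate number. A random replicate block, which ties inputs to TRAP libraries of one homogenate (block correlation 0.20), gave 0 calls for the comparison and 0 for the difference between TRAP and input. Genes under about 5 CPM, such as Calcr, Phox2a and Slc6a2, rest on few counts. The same holds in at least 1 saline input library for the cerebellar genes Pcp2, Cbln3, Fat2, Ppp1r17, Gabra6 and Gdf10. With 2 libraries a side, DSP-4 and differences between single libraries cannot be told apart.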

Other observations

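Values outside the comparisons above also set single libraries apart. LOC101056014, an unannotated gene, took 0.742% and 0.185% of the counts of DSP-4 input 2 and 7, against 1.22% and 0.0930% in saline input 5 and 12. The signal recognition particle RNA Rn7s1 was at 10.5 and 66.7 CPM in DSP-4 input, against 23.3 and 12.2 CPM in saline input, so DSP-4 input 7 alone was high. Cytosolic ribosomal protein genes were measured for all 77 members found, and their median deviation was -0.08 and 0.21 in DSP-4 input 2 and 7, against -0.12 and -0.02 in saline input 5 and 12. These genes were chosen after their values were seen, apart from the ribosomal list.

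Glucocorticoid target genes varied most with saline input 12. Sgk1, a kinase induced by glucocorticoids, was at 51.3 and 92.6 CPM in DSP-4 input, against 63.1 and 175 CPM in saline input. The median logFC of the 11 measured genes was -0.27, which was 0.19 without saline input 12, -0.11 without DSP-4 input 2 and -0.57 without saline input 5. None of the 11 had an unadjusted p under 0.05.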
